A study of Arabidopsis thaliana with 21 samples.

Results

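H3K27me3 was compared between *clfswn* seedlings and wild type (WT) with 4 of the 21 samples of the series, 2 *clfswn* libraries and 1 WT library as the control of each. The *clfswn* plants carried the *clf28* and *swn7* mutations, the WT plants were Col-0, the labels give Col-0 as the background of both, and neither group received a treatment. All plants were whole seedlings of 7 days after germination, grown in long days at 21 °C on sucrose-containing MS agar, with chromatin from 150 seedlings. By the study's methods the replicates were independent biological ones. The members were the regions of the tables that join the peaks of a *clfswn* library with those of its WT control. On the 5 nuclear chromosomes there were 11902 regions in replicate 1 and 13642 in replicate 2, of which 10195 matched between replicates, and 9098 of those were called as peaks in WT in both replicates. The other H3K27me3 comparison of the series, the triple mutant *atbmi1abc* against its own 2 WT libraries, serves for comparison.

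H3K27me3 is a repressive histone mark written by Polycomb repressive complex 2 (PRC2). CURLY LEAF (CLF) and SWINGER (SWN) are the catalytic subunits of this complex that act in seedlings, and they are partly redundant. The mark covers whole genes of the floral, meristem and seed programs that seedlings keep silent, often over several kilobases, and plants without both enzymes lose organ identity and form callus-like tissue with embryonic traits.

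Short sequences from regions on which the results turn are given first, so that the places can be found. The first group comes from 3 seed genes and *MIR156c*, at which a peak was still called in *clfswn*, with the RY motif (CATGCA), a motif bound by B3 factors of seed maturation, in capitals. The second comes from the regions with the deepest loss and from a gene with a peak in *clfswn* only, with the telobox (AAACCCTA), a short motif found at many PRC2 targets, in capitals. The motif shown does not separate the groups, since RY matches also stood in regions with the deepest loss. The *CUC2* region held 11 of them beside 4 teloboxes, and the *ASL1* region 3 beside 3. Each sequence shows the match of its motif nearest the centre of its region in TAIR10.1 (RefSeq), written on the strand that reads the motif forward. Positions are 1-based.
ABI3, chr3:8998139-8998168, minus strand: tgatgaagacgaCATGCAtgggaaatcagg
OLEO1, chr4:12900884-12900913, minus strand: gctcaacacatgCATGCAcatattgcacaa
CRA1, chr5:17757696-17757725, minus strand: gaggttccgtgaCATGCAccagaaagtgga
MIR156c, chr4:15414842-15414871, plus strand: aaaacgtacgagCATGCAatataaataatc
CUC2, chr5:21903823-21903852, plus strand: tgagagagaaaAAACCCTAaggagactcaa
ASL1, chr5:26707699-26707728, minus strand: aacaaatatcgAAACCCTAattatttatcc
UBQ10, chr4:2718792-2718821, plus strand: gattttcgttaAAACCCTAacgggaaagac

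Both motifs were counted on either strand in the central 300 bp of each region. CATGCA stood in 17.0% of the 9098 WT peaks, in 8 of 38 peaks called in both genotypes that are described below (21.1%) and in 4.97% of regions called only in *clfswn*, against 11.8% of all windows of that length on the nuclear chromosomes. AAACCCTA stood in 4.31%, in 2 of 38 (5.26%) and in 9.94%, against 3.87% of all windows. A GA repeat (GAGAGAGA), counted in the same way, stood in 4.81%, in 4 of 38 and in 9.38%, against 4.71% of all windows. In the 6461 regions called reduced below, CATGCA stood in 17.1% and AAACCCTA in 4.77%, close to the shares in all WT peaks. A match is a description of the letters, not a binding site.

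In WT the mark lay over 18114 kb and 17216 kb of peaks (10303 and 10192 peaks in replicates 1 and 2), whereas the peaks called in *clfswn* covered 491.2 kb and 1274.6 kb (1678 and 3605 peaks). Over the matched regions the *clfswn* libraries held 1334642 and 1812483 reads, against 9423939 and 6035974 in WT. The totals of the libraries are not used here, so the depth outside peaks is unknown. Reads per kb are therefore given for each library as counted, and a read ratio between genotypes is given as *clfswn* reads per 100 WT reads without scaling. Of the WT peaks, 81.8% overlapped a WT peak of the other H3K27me3 comparison, and the textbook PRC2 target *FLC*, a repressor of flowering, held 182 and 345 reads in *clfswn* against 5997 and 4139 in WT. No region was listed at CLF or SWN, and ChIP reads in regions do not check the mutations. In whole seedlings, fewer cells with the mark and less of it per cell cannot be told apart.

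Nearly every WT peak held fewer reads in *clfswn*. Of the 9098 WT peaks, 9008 (99.0%) held fewer reads in *clfswn* than in WT in both replicates and 20 held more in both. The median WT peak held 36.1 and 60.7 reads per kb in *clfswn*, against 372 and 256 in WT, which is 9.18 and 22.6 *clfswn* reads per 100 WT reads. Of the 8946 regions called in WT only, the middle 80% ran from 4.47 to 19.7 per 100 in replicate 1, and the upper end was 49.5 in replicate 2. Replicate 2 of *clfswn* thus kept a larger share than replicate 1 at most regions, which is a difference between libraries of unknown depth.

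For a test, each *clfswn* library was scaled to its control by the median ratio over the regions called in both libraries, and a region was called reduced when the edgeR quasi-likelihood test gave an adjusted p under 0.05 and its scaled level was under 80% of WT in both replicates (increased when over 120%). Of 10195 regions 6461 were reduced (63.4%), all of them WT peaks (71.0% of those), and 1240 were increased (12.2%), of which 144 were WT peaks (1.58%). Without scaling, 5766 were reduced (56.6%) and 886 increased (8.69%), and of these 886 none was a peak in WT only, 866 were called in *clfswn* only and 18 in both. The scaled median log2 ratio over all matched regions was -0.98 ± 0.02 (SD, n = 2 pairs, for which the smallest two-sided p of an exact sign-flip permutation test is 0.5). Each pair was scaled by its own factor, so this SD does not measure how far the unscaled replicates agree. Without scaling the medians were -3.26 and -1.98 (SD 0.90). The scaling rests on 75 and 144 common regions whose log2 ratios spread widely (middle 50% -3.68 to 0.98 and -2.04 to 0.39), and with TMM factors the calls turned to 2646 reduced and 3029 increased. Reads and ratios between regions of the same library are therefore given first in what follows. Counted as genes, 7783 of 10606 genes with a matched region had a reduced one (73.4%), 6319 of 8703 among protein-coding genes (72.6%).

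**Figure D1:**
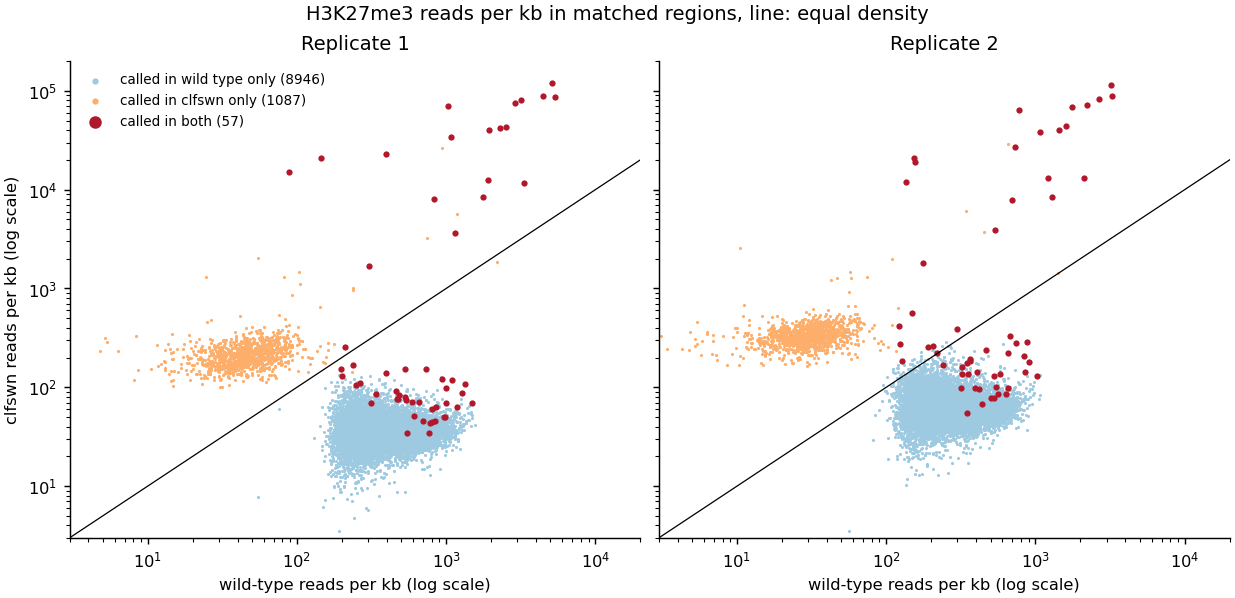
Reads per kb in clfswn (vertical) and WT (horizontal) for matched regions of 3 classes in each replicate, both axes on a log scale, 1 point per region; the 95 regions called in both genotypes in 1 replicate and in WT only in the other, and 10 other mixed ones, are not drawn. Of the 8946 regions called in WT only, 8899 lie below the line of equal reads in both replicates, with clfswn densities in a flat band, 1085 of the 1087 called in clfswn only lie above it in both, and the 57 called in both split into a group below and a group far above.

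Reads left in *clfswn* did not follow the amount of mark in WT. WT peaks were ordered by WT density in the other replicate, so that the ordering shared no library with the ratio, and cut into 5 groups of like size. In replicate 1 the median *clfswn* density was 35.7 reads per kb in the group with the least WT mark and 36.1 in the group with the most, while the *clfswn* reads per 100 WT reads were 15.8 and 4.74. In replicate 2 the *clfswn* density was 63.0 and 60.3 reads per kb, and the ratio 39.8 and 11.8. Across 9079 WT peaks (Spearman, a description across regions that share libraries) *clfswn* density and WT density had rho = -0.01 and -0.03, while WT density had rho = 0.96 between replicates and *clfswn* density 0.51. The *clfswn* density went with the GC content of the region (rho = 0.47 and 0.42) more closely than WT density did (0.18 and 0.17), and the part of base composition in the residual reads was not tested.

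The length of the domain separated regions in the same way. WT peaks of up to 500 bp (1217) held 42.4 and 72.2 reads per kb in *clfswn* against 242 and 164 in WT, and 16.1% of them were reduced. Those of 2000 to 5000 bp (2363) held 34.2 and 56.9 against 524 and 359, and 98.1% were reduced. All 593 peaks over 5000 bp were reduced, with 32.9 and 54.5 reads per kb in *clfswn* against 624 and 429 in WT, and 578 of them were also reduced without scaling. Short peaks hold fewer reads, and the part of the smaller counts in their lower share of calls was not tested.

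**Figure D2:**
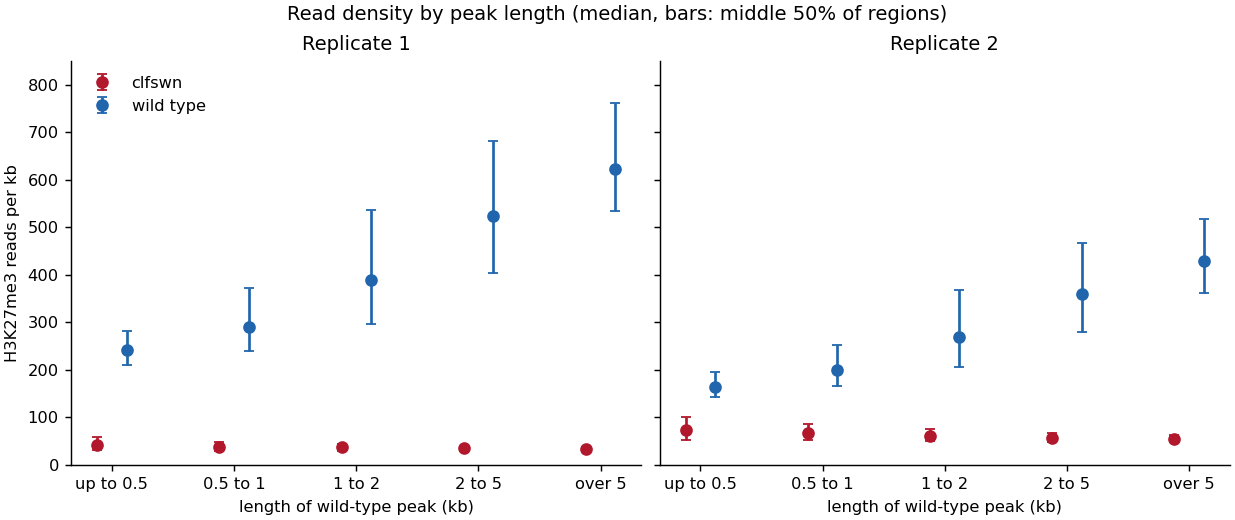
Median reads per kb in clfswn and in WT for WT peaks in 5 length classes, with bars for the middle 50% of regions, in each replicate. The clfswn medians stay between 32.9 and 42.4 (replicate 1) and between 54.5 and 72.2 (replicate 2) while the WT medians climb with length to 624 and 429.

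The deepest loss was taken as the 12 reduced regions over a gene with at least 200 WT reads in both replicates whose higher replicate level was lowest, out of 4782 candidates. These values chose the regions and are given as a description. The group held *CUC2*, a NAC factor that sets organ boundaries. Its region (chr5:21899122-21907316 and 8194 bp in replicate 1) was 13.8% coding exon, 8.57% intron and 73.7% intergenic. It had 199 and 283 reads in *clfswn* (24.3 and 51.2 per kb) against 8012 and 4362 in WT, or 2.48 and 6.49 per 100. A *clfswn* peak was still called there in 1 replicate. *ASL1*, a LOB-domain gene related to *AS2* of leaf patterning, held 143 and 209 reads against 5052 and 3456 (chr5:26705756-26709763). The region of AT5G02350 (C1-domain protein, chr5:495204-497376, 90.1% coding exon) ranked first by this rule, with 34 and 53 reads in *clfswn* and 1616 and 1071 in WT, or 2.10 and 4.95 per 100 (scaled log2 fold change -3.32 ± 0.19, SE, adjusted p = 4.05e-15). In replicate 1 alone AT5G50140 was slightly lower, at 2.07 per 100. In each of the 12 regions both *clfswn* libraries lay far below both WT libraries.

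The remaining regions of this group held other kinds of gene. AT5G02460, a Dof-type zinc finger factor, held 119 and 161 reads in *clfswn* against 4974 and 3121 in WT. *GulLO6*, of the lactone oxidase family, held 77 and 149 against 3581 and 2392. A second C1-domain gene (AT1G20990), an ankyrin-repeat gene (AT5G50140), an F-box-associated gene (AT1G77650), a gene pair of cystatin and cysteine proteinase type (AT1G03710 and AT1G03720), a flowering-promoting-factor-like gene (AT5G10625), AT5G06380 and AT1G32049 completed the 12. The last of these, just inside the limit, held 27 and 36 reads against 967 and 638, or 2.79 and 5.64 per 100. In *atbmi1abc* the same regions were not uniform: *CUC2* kept 64.0 and 70.9 reads per 100 of that mutant's WT control, while AT5G02350 kept 8.87 and 10.9.

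The highest residual level, chosen by the same kind of rule among WT peaks, lay entirely in a small set of regions with very dense reads in *clfswn*. All 12 lay among 31 matched regions with over 1000 *clfswn* reads per kb in both replicates. At the start of chromosome 2 (chr2:1236-10374), with the ribosomal RNA genes AT2G01010 and AT2G01020, 5 such regions held 121705 and 126741 reads in *clfswn* against 4693 and 3175 in WT. On chromosome 3 (chr3:14194603-14203973), with AT3G41768 and AT3G41979, also ribosomal RNA genes, 8 regions held 473122 and 484090 reads against 25125 and 16030. The 31 regions took 47.4% and 36.0% of *clfswn* reads in matched regions, against 0.37% and 0.38% in WT. Their *clfswn* reads in replicate 2 were 1.04 times those in replicate 1 in the median region. In regions called in WT only, the *clfswn* reads per kb in replicate 2 were 1.70 times those in replicate 1. The first ratio is of reads and the second of reads per kb. Ribosomal RNA genes have near-identical copies, so values there are uncertain. The other 18 dense regions lay elsewhere, among them regions at AT2G08986, AT5G29550 and the F-box gene AT5G10340 and regions without a gene.

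Next after the dense regions (a step chosen after their values were seen) came 12 regions with moderate reads. *MIR156c*, a precursor of the microRNA that holds plants in the juvenile phase, stood first: its region (chr4:15413911-15415741) held 201 and 349 reads in *clfswn* against 483 and 260 in WT, or 41.6 and 134 per 100. *KCS20*, a fatty acid elongase, held 81 and 175 reads against 306 and 215. AT1G05510, a gene of unknown function with a DUF1264 domain, held 90 and 201 against 334 and 214. The region of AT2G21480 and the dehydrin gene *LEA* held 156 and 391 against 622 and 382. In replicate 1 all 12 held fewer reads in *clfswn* than in WT, with 22.9 to 41.6 per 100, and in replicate 2 the ratio was 54.0 to 134 per 100, with more reads in *clfswn* at 3 of them. With scaling 5 of the 12 were called increased, and without scaling none was called in either direction.

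**Figure D3:**
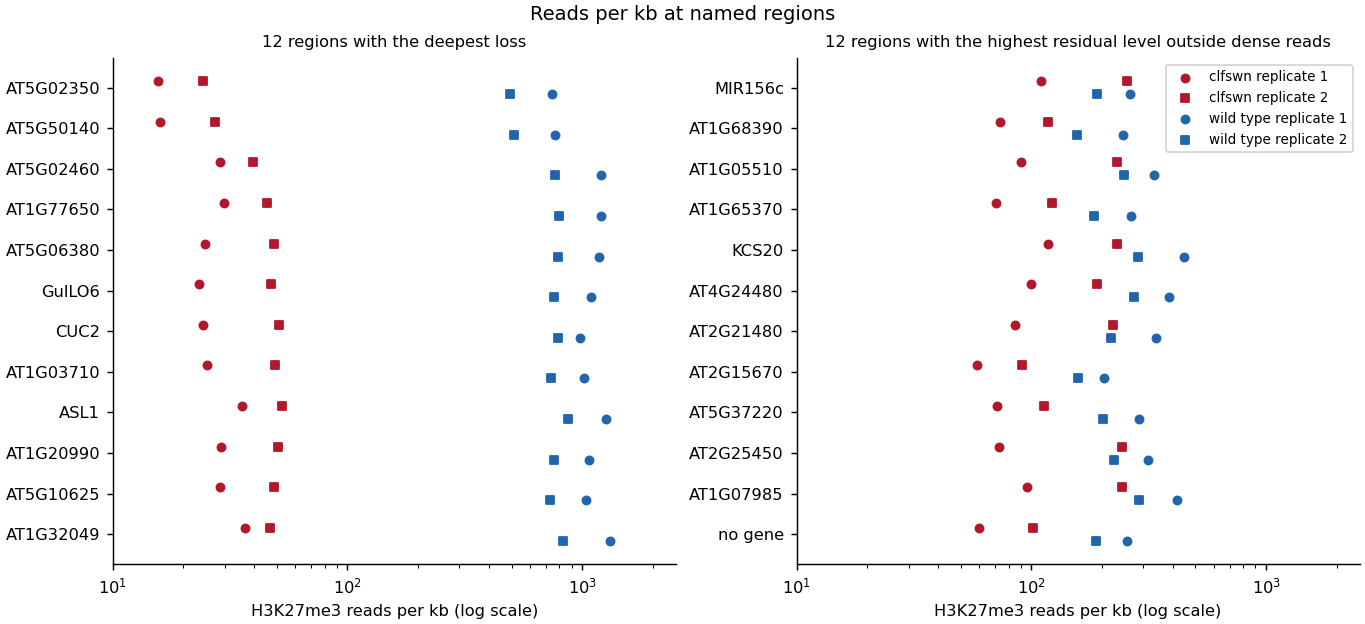
Reads per kb (log scale) at the 12 regions with the deepest loss (left) and at the 12 regions with the highest residual level outside dense reads (right), with clfswn above WT in each row, circles for replicate 1 and squares for replicate 2, rows named by the first gene. On the left all clfswn points lie between 15.7 and 52.6 and all WT points at 491 or above, whereas on the right the clfswn and WT points of replicate 2 lie close together.

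Outside the dense regions, 38 WT peaks were also called as peaks in *clfswn* in both replicates. Their median *clfswn* density was 76.6 and 164 reads per kb, against 631 and 413 in WT, or 11.5 and 34.8 per 100. Thus 30 of the 38 held fewer *clfswn* than WT reads in both replicates although a peak was called, and with scaling 22 were reduced, 8 increased and 8 not called (15, 0 and 23 without scaling). WT peaks of H2AK121ub, the mark of Polycomb repressive complex 1, overlapped 89.5% of the 38, beside 66.7% of all WT peaks. The 38 were longer, with a median of 2297 bp beside 1321 bp, and the part of length in this overlap was not tested. Peak calls in *clfswn* helped to choose these regions, so their residual reads are a description.

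Of the 38, 6 covered a gene of the lists of developmental and seed genes. The genes named here were picked from the 38 after their values were seen, and no count of a theme among them was made. Those known from seeds are given first. *ABI3*, a B3 factor that drives seed maturation, held 436 and 719 reads in *clfswn* against 6311 and 3577 in WT (chr3:8995030-9001342, 69.1 and 181 *clfswn* reads per kb). *CRA1*, a 12S seed storage globulin, held 206 and 466 against 2993 and 1898. *OLEO1*, the main oil body protein, held 115 and 268 against 1163 and 788. At all 3 the ratio was 6.88 to 9.89 per 100 in replicate 1 and 20.1 to 34.0 in replicate 2. Others were *PER1*, a seed peroxiredoxin (166 and 438 against 2061 and 1335), the late embryogenesis abundant gene *AtLEA4-1* (124 and 217 against 352 and 167), *BETA-VPE*, a protease that processes storage proteins, the *ABI4* region, the oleosin family genes AT2G25890 and AT1G48990, and *ATPXG2*, a peroxygenase.

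The 38 also held genes of other kinds, such as the transporters *SUT4*, *AAP1* and *GPT1* and clusters of receptor-like kinase genes. *AIL5*, an AINTEGUMENTA-like factor, held 378 and 617 reads in *clfswn* against 4500 and 2505 in WT. The homeodomain genes *HDG1* and *ANL2* held 223 and 418 against 1617 and 1076, and 263 and 530 against 2169 and 1487. *KNAT6*, *SEP2*, *LRP1* and *NAC105* were also among them, with 4.50 to 5.54 *clfswn* reads per 100 WT reads in replicate 1. *MIR156a*, a second precursor of miR156, held 209 and 294 against 951 and 422, and *AGP9*, an arabinogalactan protein, held 90 and 148 against 73 and 39 and was the only one of the 38 above WT in both replicates.

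Genes of 11 lists of developmental regulators and seed products were then read as groups. Of 82 genes, 79 had a matched region, 73 had a reduced one (without scaling, 69 by their main region alone), 2 had no call in either direction and 4 had an increased region that was called in *clfswn* only. The count of reduced genes stands beside 73.4% of all genes with a matched region and 81.8% of genes with a WT peak. An increased region was found at 1261 of all 10606 genes with a matched region. Most main regions of these genes were long, and of all WT peaks of 2000 to 5000 bp 98.1% were reduced. *MAF1*, *SCR* and *YUC2* had no matched region.

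Flower genes lost the mark throughout the list. All 13 floral organ MADS-box genes had a reduced region, with a median of 3.93 and 11.9 *clfswn* reads per 100 WT reads. *AG*, which specifies stamens and carpels, held 319 and 506 reads in *clfswn* against 8114 and 5381 in WT (log2 fold change -2.40 ± 0.13, SE, adjusted p = 3.3e-15). *SEP4*, of the SEPALLATA co-factors, had the highest ratio in replicate 1, with 107 and 166 reads against 1541 and 1044 (6.94 and 15.9 per 100). The floral zinc finger genes *SUP*, *JAG* and *KNU*, which limit or shape floral organs, were reduced as well.

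Of 8 flowering-time genes with a region, 7 were reduced. *FLC* stood lowest (3.03 and 8.34 per 100), and *LFY*, which starts flower formation, held 119 and 143 reads in *clfswn* against 2542 and 1709 in WT. *FT*, the mobile flowering signal, was not called: its largest region (chr1:24332176-24334828) held 97 and 497 reads in *clfswn* against 1971 and 1242 in WT. The ratio was 4.92 per 100 in replicate 1 and 40.0 in replicate 2, so the *clfswn* libraries lay below WT in both replicates but differed from each other more than at other genes of this list. A second region at *FT* held 54 and 143 reads in *clfswn* against 325 and 216 in WT. The third held 19 and 113 against 110 and 66, so that *clfswn* lay above WT there in replicate 2. Neither was called.

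Meristem and boundary genes had some of the lowest ratios. All 13 stem cell, WOX and KNOX genes had a reduced main region (median 4.55 and 11.9 per 100). With scaling, further regions at *CLV3*, *WOX2*, *WOX12*, *KNAT1* and *KNAT2* were reduced as well. Others at *KNAT6* (16 and 37 reads in *clfswn* against 89 and 71 in WT), *WOX4* (48 and 126 against 325 and 200) and *WOX2* (17 and 11 against 106 and 61) were not called. *STM*, the KNOX factor that maintains the shoot meristem, held 318 and 628 reads in *clfswn* against 11641 and 7710 in WT (2.73 and 8.15 per 100, log2 fold change -2.76 ± 0.14, SE, adjusted p = 1.09e-15). *WUS*, the homeodomain factor of the stem cell niche, held 123 and 221 against 3411 and 2199. Of 6 boundary genes 5 were reduced, with *BOP1*, a co-regulator of leaf patterning, at 100 and 204 reads against 4251 and 2692. *CUC1*, whose region is 601 bp long, held 22 and 44 reads against 218 and 107 and was not called (adjusted p = 0.0572).

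Root, embryo, auxin and imprinted genes with a matched region each had a reduced one. *PLT1*, *PLT2*, *BBM*, *MGP* and *SHR*, regulators of the root stem cell niche or of embryonic growth, were all reduced, with *PLT2* at 195 and 312 reads in *clfswn* against 6332 and 4110 in WT. Of the auxin genes, the biosynthesis genes *YUC1*, *YUC4* and *TAA1* had a reduced main region, with *YUC1* at 140 and 285 reads against 3646 and 2469. A second region upstream of *TAA1* held 22 and 49 against 152 and 81 and was not called. The imprinted genes *MEA*, *PHE1*, *FWA* and *FIS2* each had a reduced main region, that of *FIS2* not without scaling. *MEA*, itself a PRC2 catalytic subunit of the endosperm, held 161 and 337 reads in *clfswn* against 4227 and 3161 in WT. A small second region at *MEA* (chr1:544713-545094) held 24 and 47 against 56 and 49 and was called increased with scaling (log2 fold change 0.99 ± 0.33, SE, adjusted p = 0.00829) and not without. The second region of *FIS2* held 20 and 22 against 197 and 123 and was reduced with and without scaling.

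The 2 lists of seed genes had the highest median reads per kb in *clfswn* of the 11 lists. The 8 seed maturation regulators were all reduced (7 without scaling), with a median *clfswn* density of 41.1 and 79.4 reads per kb, beside 36.1 and 60.7 over all WT peaks. The storage protein and oleosin genes with a WT peak, of which *SESA1* to *SESA4* share 1 region, had 55.7 and 100.1 reads per kb, and medians of the other 9 developmental lists lay between 28.3 and 37.2 in replicate 1 and between 50.4 and 64.6 in replicate 2. *WRI1* has the same region as the floral gene *AP3* (54.7 and 96.4 reads per kb), which thus stands in 2 lists. Without it the middle value of the seed maturation regulators is 38.6 (*LEC1*) in replicate 1 and 62.5 (*FUS3*) in replicate 2. The latter is below the 64.6 of the floral organ MADS-box genes, so the order in replicate 2 rests on that shared region. This order was read from the lists and not tested. *SESA1* to *SESA4*, the 2S albumins, held 407 and 736 reads in *clfswn* against 8435 and 5399 in WT and were reduced (log2 fold change -1.98 ± 0.13, SE, adjusted p = 1.02e-13), and *AGL15*, a MADS-box factor of embryos, held 82 and 179 against 820 and 539. *OLEO2* had no WT peak and a short region called in *clfswn* only, with 70 and 258 reads against 54 and 44.

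**Figure D4:**
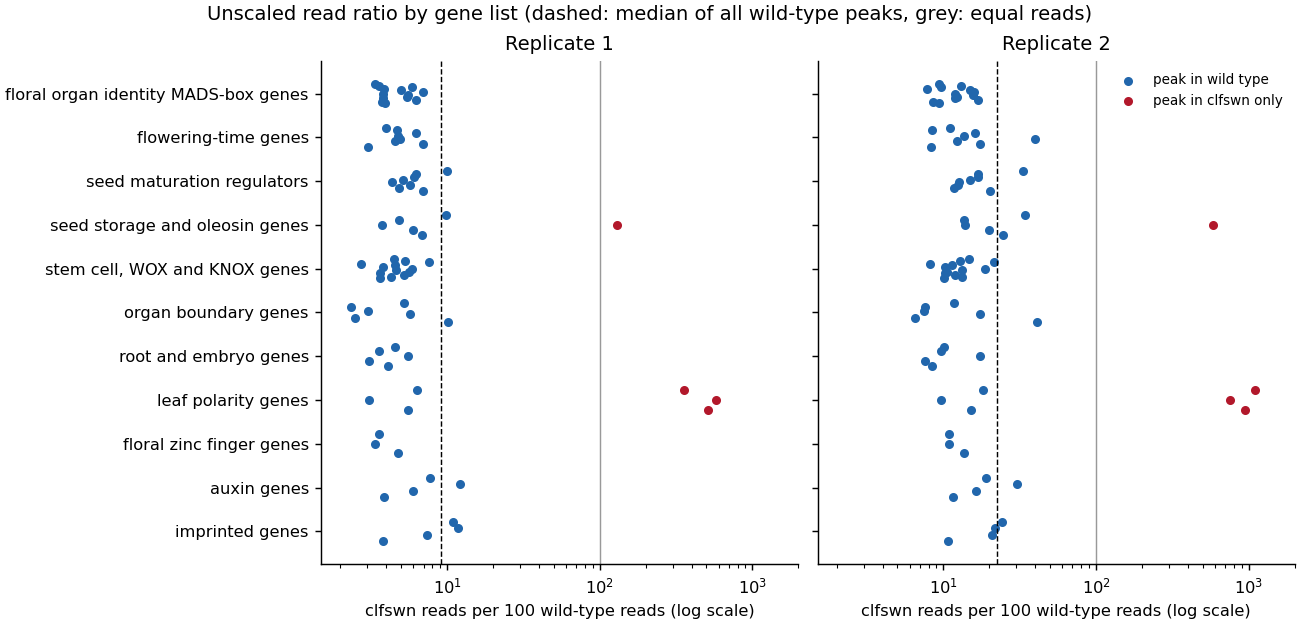
Clfswn reads per 100 WT reads (log scale, unscaled) at the main region of each gene in 11 lists, in each replicate, 1 point per region, coloured by whether the region was a peak in WT or in clfswn only. Most points lie left of the dashed line, the median of all WT peaks (9.18 and 22.6), and the 4 points right of the grey line at equal reads are OLEO2, PHB, PHV and REV.

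Leaf polarity genes split by whether WT carried a peak. *KAN1*, *YAB1* and *YAB3*, regulators of the lower leaf side, had WT peaks and were reduced, with *YAB1* at 230 and 481 reads in *clfswn* against 7455 and 5004 in WT. *PHB*, *PHV* and *REV*, the HD-ZIP III factors of the upper side, had only short regions called in *clfswn*. *PHB*, with a region of 209 bp in replicate 1, held 61 and 180 reads in *clfswn* against 12 and 19 in WT. *PHV* held 46 and 114 against 8 and 15, and *REV* held 78 and 243 against 22 and 22. The limits of these regions differed between replicates. Per kb, *PHB* held 292 and 234 *clfswn* reads, *PHV* 220 and 340, and *REV* 209 and 303. The peak calls that define these regions use the same reads, so their increase is a description. Of the 1087 such regions, 1085 held more reads in *clfswn* in both replicates.

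The 1087 regions called in *clfswn* only in both replicates were unlike WT peaks in other ways. Their median length was 271 bp, beside 1321 bp for WT peaks, and their GC content 42.4% beside 35.7%. Coding exons made up 59.2% of their bases and intergenic sequence 2.70%, against 31.8% and 42.4% in WT peaks. The median such region held 58 and 126 reads in *clfswn*, against 13 and 12 in WT. Their *clfswn* density of 209 and 330 reads per kb was below the WT density of the median WT peak in replicate 1 and above it in replicate 2. WT H2AK121ub peaks overlapped 38.7% of them.

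Genes used in every cell were among them. Of 9 housekeeping genes, 3 had a matched region, each called in *clfswn* only: *ACT7*, an actin, held 90 and 149 reads in *clfswn* against 14 and 7 in WT, *UBQ10*, a polyubiquitin, held 238 and 1355 against 80 and 90, and *EF1A4*, a translation elongation factor, held 141 and 404 against 40 and 32. Of 12 genes of the Polycomb machinery 9 had no region, and *BMI1C* was reduced (85 and 204 against 1245 and 821). *LHP1* (39 and 87 against 11 and 3) and *RING1B* (21 and 52 against 11 and 7) had short regions called in *clfswn* only. Beside these counts, 1261 of all 10606 genes with a matched region had an increased one. The clfswn-only regions with the highest levels were AT3G00650, an RNA gene beside the ribosomal block of chromosome 3 with 103 and 91 reads against 0 in both WT libraries (at least 34.3-fold and 30.3-fold higher, with 3 reads as the floor per library), a region without a gene at chr4:3055176-3055339 (330 and 490 against 9 and 2), a region at the start of chromosome 2 (29556 and 31920 against 1041 and 719), AT2G05195, AT2G03865 and AT2G08986.

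By gene family, the share of WT peaks that were reduced was above the 71.0% of all WT peaks in most families. It was 90.2% for MADS-box genes (74 of 82 peaks, median length 2473 bp), 86.5% for WRKY factors (45 of 52), 82.8% for MYB factors (101 of 122), 81.1% for cytochromes P450 (116 of 143) and 80.7% for F-box genes (296 of 367). It was lowest for B3 genes (13 of 21, 61.9%, median length 1068 bp) and receptor kinase genes (125 of 190, 65.8%, 1356 bp). The reads left in *clfswn* varied little between these families, with medians from 31.6 to 41.7 reads per kb in replicate 1. The part of peak length in these shares was not tested.

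The *clfswn* change was set against that in *atbmi1abc*, which lacks the BMI1 proteins of Polycomb repressive complex 1, over 7088 regions matched in all 4 tables. The median region kept 8.22 and 20.2 reads per 100 WT reads in *clfswn*, against 77.1 and 87.8 in *atbmi1abc* with its own controls. In 1 model over the 8 libraries the loss was deeper in *clfswn* in 4622 regions (65.2%) and shallower in 820 (11.6%) (5277 and 45 without scaling, 1913 and 2278 with TMM factors). At *STM*, *clfswn* kept 2.73 and 8.15 per 100 and *atbmi1abc* 67.8 and 78.0. With scaling, seed genes went both ways. *ABI3* kept 6.91 and 20.1 per 100 in *clfswn* and 7.47 and 9.20 in *atbmi1abc*, and the loss was shallower in *clfswn* with scaling (log2 difference 2.11 ± 0.13, SE, adjusted p = 3.14e-10). *CRA1* kept 6.88 and 24.6 in *clfswn* and 7.30 and 10.2 in *atbmi1abc* (2.22 ± 0.19, adjusted p = 7.59e-09). At both genes the unscaled ratio was lower in *clfswn* than in *atbmi1abc* in replicate 1 and higher in replicate 2. The direction in replicate 1 thus rests on the scaling. Its log2 factors were -2.26 and -1.01 for *clfswn* and -0.13 and 0.05 for *atbmi1abc*. *LEC2* kept 4.38 and 12.6 in *clfswn* and 77.3 and 89.1 in *atbmi1abc*, a deeper loss in *clfswn* (-1.88 ± 0.16, adjusted p = 9.78e-09). The main region of *FLC* kept 3.03 and 8.34 in *clfswn* and 21.3 and 21.3 in *atbmi1abc* (-0.48 ± 0.13, adjusted p = 0.00299). A second region upstream of *FLC* (chr5:3180327-3181348) kept 8.25 and 24.6 in *clfswn* and 21.1 and 21.8 in *atbmi1abc*. There the loss was shallower in *clfswn* with scaling (1.02 ± 0.26, adjusted p = 0.00183). Its unscaled ratio was lower in *clfswn* in replicate 1 and higher in replicate 2.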

How the data were processed

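Reads had been aligned by the authors to TAIR10 with Bowtie (unique alignments, up to 2 mismatches), who called peaks with MACS2 against a common input, and deposited for each replicate a table of read counts per peak of a mutant and a WT library. The deposited counts are whole and unscaled. The columns with the authors' rescaled M and A values and p-values were not used. The first count column was taken as clfswn and the second as WT, following the sequence of names in each table's title, and all directions rest on this. Organelle regions were left out. A region called in both libraries was used once with the WT limits, and regions of both replicates were matched when each was the other's best overlap (1 bp or more).

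Counts were fitted with edgeR 4.0.16 (R 4.3.3) with the replicate as a block, over regions with at least 20 reads in the 4 libraries, and p-values were adjusted over all regions by the Benjamini-Hochberg method. The labels name a WT control for each clfswn library and both were counted within the same limits, which is the pairing; a correlation of deviations would reflect the shared limits and was not used. Ratios for scaling had 1 added to each count. Counts were also simulated with the WT depths of the comparison (10195 regions). The clfswn depths were set from these by the scaling factors of the fit, with a fixed spread. Of the simulated regions, 44 of 44 at a fold of 0.25 and 40 of 54 at 0.5 were called reduced. Of 9880 unchanged ones 3 were called reduced and 5 increased. The fit used the same factors, so these counts cannot measure an error of the scaling. Genes and symbols came from TAIR10.1 (RefSeq); genes under a region were its genes, and, where there were none, those with a start within 2 kb downstream. No peak ended past the reference. Printed limits, lengths and base shares of a region are those of replicate 1. Reads of replicate 2 were counted within the limits of that replicate, which can differ. Region limits are printed as deposited; the tables do not say if the first base is 0 or 1.

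Named genes were the 12 reduced regions with the lowest and the 12 WT peaks with the highest level (at least 200 WT reads in both replicates), the 6 highest clfswn-only regions (at least 50 clfswn reads in both), and members of 13 gene lists and 15 product families. Members and lists were chosen with earlier results of these data known. DESeq2 1.42.0 and other scalings, filters, limits and overlaps were alternatives.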

Additional observations from a re-analysis of the deposited data

Results flagged for a closer look

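Regions on the organelle genomes, which no comparison used, held reads above the WT level. In replicate 1, 74 such regions held 43863 reads in clfswn against 3010 in WT (14.6-fold), and in replicate 2, 35 regions held 150443 against 4849 (31.0-fold). All were called in clfswn only, from the same reads, so the excess is a description.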

How the results depend on the processing

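The count of reduced regions (6461) came to 4055 with total reads over matched regions as the scale, 2646 with TMM, 2376 with DESeq2 (size factors and Wald test), 3100 with a regression over common regions and 4268 with limits of 50% and 200%. The count of increased regions (1240) came to 3029 with TMM, 1923 with DESeq2, 761 with the regression and 793 with an overlap of at least 50%. Genes with a reduced region (7783) came to 4019, 3752 and 3687 with TMM, DESeq2 and the regression. The share of reduced among called regions was 83.9%, against 70.4% with total reads, 46.6% with TMM and 55.3% with DESeq2. The median log2 ratio (-0.98) was reversed with TMM (0.12) and was -0.34 with total reads, -2.62 without scaling, -1.15 with the regression, -1.07 with the 50% overlap, -1.59 with clfswn limits for common regions, -1.13 over WT peaks and -0.48 with a factor from common regions of up to 1000 clfswn reads per kb. That factor, which gave 4493 reduced and 1524 increased regions, and the fit with neither scaling nor block (8748 and 1098) were chosen after seeing the data. Regions deeper in clfswn than in atbmi1abc (4622) came to 1913 with TMM. The cause of these shifts was not tested. Without the replicate block, 4539 regions were reduced, 1136 increased, 6071 genes had a reduced region and 3120 regions were deeper than in atbmi1abc, and each count kept its direction without the pairing. With 1 replicate left out (level limits only, with no test) the ranges were 7323 to 7468 reduced, 1559 to 1679 increased, 8371 to 8461 genes and -1.0 to -0.97 for the median. The smaller counts of short peaks limit the precision of their values.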
